A study of Mus musculus with 3 samples.

Results

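Strong HNF4A sites at which FOXA2 was called weakly are described here, as mapped in hepatoblasts of the mouse fetal liver. They are pairs of an HNF4A and a FOXA2 peak that share at least 1 bp, and they were chosen by the authors' scores: an HNF4A score of 33 or more and a FOXA2 score of 14 or less. Pairs within 10 kb of a region called in input chromatin were left out. By this rule 259 of 2857 overlapping pairs away from input were members, 9.07% of them. Scores of 33 or more made up 25.6% of the nuclear HNF4A list and 37.4% of the pairs, and scores of 14 or less made up 46.5% of the FOXA2 list and 30.3% of the pairs. Because these scores define the members, none of these shares is a result about them.

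HNF4A is a nuclear receptor that binds direct repeats as a homodimer and drives many hepatocyte genes, from apolipoproteins to clotting factors. FOXA2 is a forkhead factor with a winged-helix domain that can bind its site on nucleosomal DNA, and together with FOXA1 it makes the endoderm competent to form liver. Hepatoblasts are the bipotent cells of the fetal liver that give rise to hepatocytes and to the lining of bile ducts, and many liver enhancers carry sites for both factors.

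The study made 3 chromatin libraries from hepatoblasts, sorted with magnetic beads for the surface protein DLK1, out of pooled embryonic day 14.5 livers of wildtype C57BL/6 mice. There was 1 library with an HNF4A antibody (Santa Cruz H191), 1 with a FOXA2 antibody (Santa Cruz) and 1 of input without immunoprecipitation. All groups share this strain, genotype, stage and sort, and the material was pooled, so no animal can be followed. With 1 library per group there is no replicate check and no test between conditions was possible; the values below describe these lists. Intervals are 95% binomial intervals (Wilson for shares, order statistics for medians), which cover counting error only and take pairs as independent.

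The HNF4A list held 11700 nuclear peaks with scores of 16 to 161, the FOXA2 list 9338 peaks with scores of 11 to 165 and the input list 1263 regions. The sequencing depth is unknown, and the lists end at their lowest scores, where 10.1% of HNF4A and 16.5% of FOXA2 peaks stood. Members therefore lie in the upper part of the HNF4A list and in the lower part of the FOXA2 list, whose median score was 15, with 87 at the lowest FOXA2 score of 11, 59 at 12, 54 at 13 and 59 at 14. Their HNF4A scores had a median of 45 (interquartile range 38 to 56, highest 149). Just inside the HNF4A limit stood 12 members at 33, with peak centres a median of 58.2 bp apart and FOXA2 peaks of 420.5 bp, and just outside it 14 pairs at 32, with 46.8 bp and 382 bp. Just inside the FOXA2 limit stood the 59 members at 14, with 71 bp and 446 bp, and just outside it 49 pairs at 15, with 71.5 bp and 353 bp. The 259 members used 259 different HNF4A and 259 different FOXA2 peaks, and 3 of them had a peak that also met another peak of the other factor. A further 2 pairs that met both score limits lay within 10 kb of input and were removed. The remaining members were far from input, at a median of 4629997 bp and at least 26801 bp.

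Positions are given in mm9, the build of the lists, counted from 1 with both ends included. The highest HNF4A score among members belonged to chr8:3256539-3256896, with 149, whose 447 bp FOXA2 peak at chr8:3256336-3256782 had the lowest score of its list, 11. The FOXA2 peak reached beyond the HNF4A peak on 1 side and its centre lay 158.5 bp away. Second was chr5:65748053-65748502 with an HNF4A score of 139, where the geometry was the opposite: the FOXA2 peak at chr5:65748129-65748433 (score 12) sat inside the 450 bp HNF4A peak with centres 3.5 bp apart. Next was chr19:37517262-37517625 with an HNF4A score of 108, a 364 bp peak enclosed by a FOXA2 peak of 767 bp at chr19:37516967-37517733 that scored 11. It was followed by chr8:98409910-98410298, HNF4A score 106, likewise enclosed by a FOXA2 peak of 545 bp and score 12. These sites show that the weak FOXA2 call could be narrower or far broader than the strong HNF4A call it met.

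Further down by HNF4A score were chr12:73037487-73037883 (score 96) and chr2:31315901-31316265 (93), with FOXA2 scores of 11 and 14 and centres 37 and 47 bp apart. Chr1:71697270-71697674 scored 90, chr4:33348201-33348587 and chr11:83830589-83830937 88 each, and chr2:109825162-109825510 87. Of these, the site on chromosome 11 had a 620 bp FOXA2 peak that enclosed the HNF4A peak and reached mostly to 1 side of it. Chr14:47225835-47226187 (HNF4A 86) had a still broader FOXA2 peak of 696 bp with a score of 11, which again enclosed the HNF4A peak off centre, and its centre lay 166.5 bp away. Overlaps of several kinds thus recurred among the strongest members: FOXA2 inside HNF4A, HNF4A inside FOXA2, and a FOXA2 peak running off 1 flank.

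The remaining 9 of the 20 highest members had HNF4A scores of 79 to 85. They were chr8:129298741-129299159 (score 85), chr17:34999044-34999692 and chr2:50911718-50912217 (84 each), chr8:129137891-129138381 (83), chr1:38299481-38299852 and chr18:66164787-66165172 (82 each), chr5:66435061-66435523 and chr7:149754823-149755338 (81 each) and chr19:36869854-36870180 (79). At chr1:38299481-38299852 the weak FOXA2 peak was the narrowest of all members, 200 bp, and the same HNF4A peak also met another FOXA2 peak with a score of 26. Over all 20, FOXA2 scored 11 at 11 sites, 12 at 4 and 14 at 5. The FOXA2 peak was wider than the HNF4A peak at 10 of 20, with median widths of 447.5 bp for FOXA2 and 388 bp for HNF4A.

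**Figure D1:**
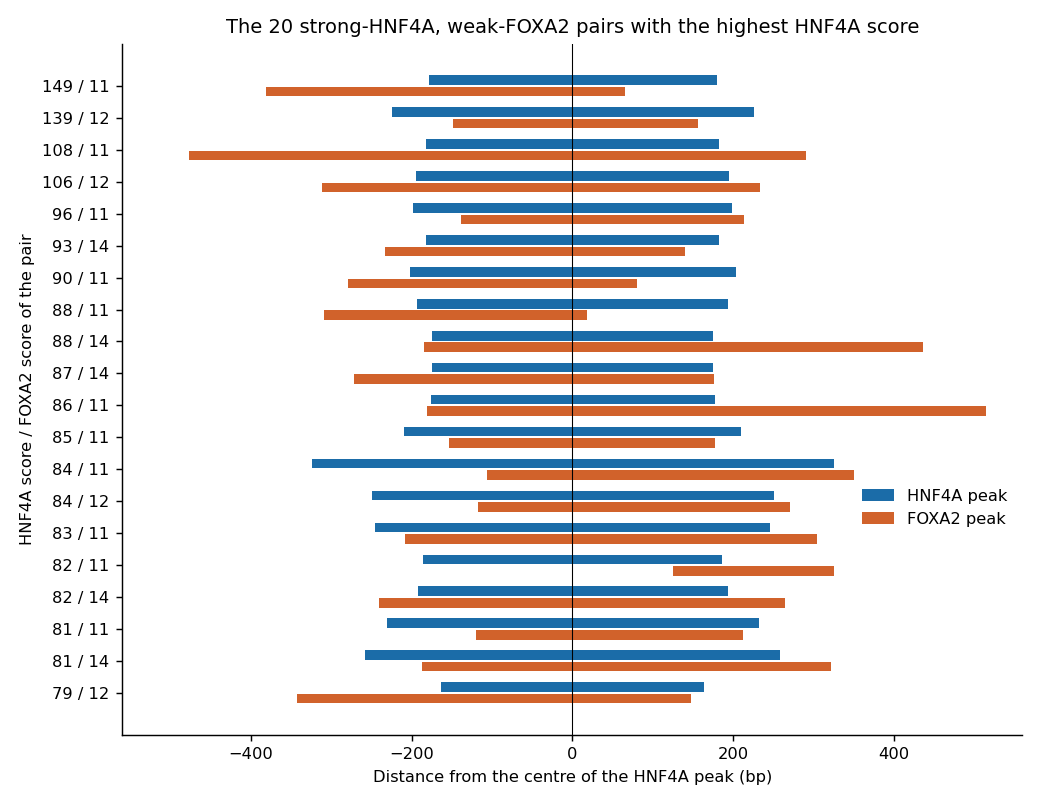
Extent of the HNF4A peak (blue) and the FOXA2 peak (orange) at the 20 members with the highest HNF4A score, as distance in bp from the HNF4A centre; row labels give the HNF4A score and then the FOXA2 score. HNF4A peaks have a median width of 388 bp here and FOXA2 peaks of 447.5 bp, and centres are under 100 bp apart at 13 of 20.

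The first measure that the rule did not use was the distance between the peak centres. A centre is the midpoint of the called interval, since the lists give no summit. It moves with the borders of the peak, so the distances below are not distances between binding positions. The centres of members lay a median of 68.5 bp apart (58.5 to 76 bp; interquartile range 29 to 109.25 bp), against 58.5 bp (55.5 to 60 bp) in the other 2598 pairs. Against pairs with equally strong HNF4A and FOXA2 above 14 the difference was larger, 68.5 bp in members and 48 bp in those 809 pairs (44.5 to 52 bp), and the intervals did not overlap. Against the 608 pairs with equally weak FOXA2 but HNF4A below 33 it vanished, with 68.5 bp in members and 70.5 bp in those pairs (63 to 75 bp). Pairs with HNF4A below 33 and FOXA2 above 14 stood between, at 60.5 bp (57 to 64.5 bp, n = 1181). The members' median was thus near that of the other weak FOXA2 pairs and above that of the other strong HNF4A pairs. With FOXA2 widths held between 331 and 425 bp, the medians were 56.5 bp in members (43.5 to 73 bp, n = 96) and 44 bp in pairs with strong HNF4A and FOXA2 above 14 (41 to 48.5 bp, n = 512), and the intervals overlapped. In the same width range they were 52.5 bp in all other pairs (49 to 55.5 bp) and 63.8 bp in pairs with HNF4A below 33 and weak FOXA2 (56.5 to 72.5 bp). Centres under 100 bp apart made up 70.8% of members there, against 86.1% of pairs with strong HNF4A and FOXA2 above 14.

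Centres under 100 bp apart were found in 67.2% of members (61.2 to 72.6%). They were found in 81.2% of pairs with strong HNF4A and FOXA2 above 14 (78.4 to 83.8%). The share was 65.5% in pairs with HNF4A below 33 and weak FOXA2 (61.6 to 69.1%). Despite the displacement, the FOXA2 centre stayed inside the HNF4A peak in 245 of 259 members, 94.6% (91.1 to 96.8%). The share was 97% in the other pairs (96.2 to 97.6%). It was 98.4% in pairs with strong HNF4A and FOXA2 above 14 (97.3 to 99.1%), whose interval lay above that of members. In pairs with HNF4A below 33 and weak FOXA2 it was 94.7% (92.7 to 96.2%). Distances of 200 bp or more occurred in 14 members, 5.41% (3.25 to 8.87%), against 6.93% of the other pairs (6.01 to 7.97%). They were found in 3.21% of pairs with strong HNF4A and FOXA2 above 14 (2.2 to 4.67%) and 10.4% of pairs with HNF4A below 33 and weak FOXA2 (8.18 to 13%). Among members the distance hardly followed the HNF4A score (Spearman rho = -0.03, Pearson r = -0.03 across 259 pairs of the same libraries) or the FOXA2 width (rho = 0.11). Among strong-HNF4A pairs, the median distance was 62.5, 69.5, 68.8 and 71 bp at FOXA2 scores of 11, 12, 13 and 14, still 71.5 bp at 15, and 45.2 bp at 16 to 17. It was 42.5 bp at FOXA2 scores of 36 and above. The pairs just outside the limit of 14 had nearly the same median as the members just inside it.

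**Figure D2:**
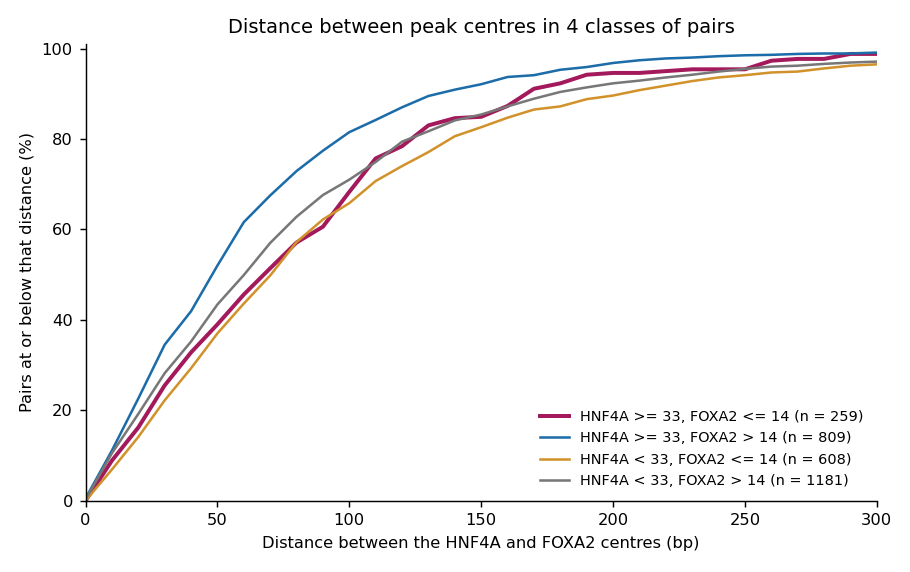
Cumulative share of pairs (y axis, %) with HNF4A and FOXA2 centres at or below a given distance (x axis, bp; shown to 300 bp) for members and the 3 other combinations of score. Members (median 68.5 bp) run close to the 608 pairs with HNF4A below 33 and weak FOXA2 (median 70.5 bp), and the curve of the 809 pairs with strong HNF4A and FOXA2 above 14 stands highest at 100 bp.

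The members at the extremes show what these distances look like. The narrowest was 1.5 bp, at chr12:17745154-17745598, where the FOXA2 peak (chr12:17745134-17745615, score 14) enclosed an HNF4A peak of score 38. Distances of 2 bp followed at chr11:76835278-76835921 (HNF4A 39) and chr16:58663943-58664349 (HNF4A 54). The widest was 388.5 bp, at chr1:72301628-72302115 with an HNF4A score of 55, where only 15 bp were shared with the FOXA2 peak at chr1:72302101-72302419. Next came chr1:65224405-65224964 (334 bp) and chr7:82560320-82560766 (332.5 bp), which share 94 and 174 bp with their FOXA2 peaks. Of these 3, the member with the widest distance had peaks that met only at their ends.

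The displacement of the midpoints had a common direction over the whole set of pairs. The FOXA2 centre lay at the lower coordinate in 156 of 259 members, 60.2% (54.2 to 66.0%), and in 58.4% of the other pairs (56.5 to 60.3%). The median shift, FOXA2 minus HNF4A, was -23 bp in members (-35.5 to -8.5 bp) and -17 bp in the other pairs (-20.5 to -13 bp), and over all pairs together the median was negative on 19 of 19 autosomes. By edge, the median FOXA2 start minus HNF4A start was -12 bp in members and 15 bp in the other pairs. For the ends it was -32 bp in members and -48 bp in the other pairs. Both edges thus lay lower in members, and only the end did in the other pairs. The cause of the shift was not tested. With the shift of all pairs subtracted, median distances were 69 bp in members and 56 bp in the other pairs.

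The second measure was peak width. The weak FOXA2 peaks of members were broad: their median width was 407 bp (388 to 429 bp), against 365 bp in the other pairs (363 to 367 bp), 366 bp in pairs with strong HNF4A and FOXA2 above 14 (363 to 370 bp) and 379 bp in pairs with HNF4A below 33 and weak FOXA2 (373 to 391 bp). FOXA2 peaks of the same low scores with no HNF4A peak had a median of 374 bp (371 to 376 bp, n = 3089). Widths of 500 bp or more were reached by 61 of 259 member FOXA2 peaks, 23.6% (18.8 to 29.1%). The same width was reached by 7.42% of the FOXA2 peaks with strong HNF4A and a FOXA2 score above 14 (5.81 to 9.43%), by 15.3% of those with HNF4A below 33 and weak FOXA2 (12.7 to 18.4%) and by 17.1% of weak FOXA2-only peaks (15.8 to 18.4%). The member interval overlapped none of these 3 intervals.

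Width depended on score in steps, which bears on this comparison. Over FOXA2 peaks more than 10 kb from input the median width climbed from score 11 (366 bp) to score 14 (394 bp), then stood at 355 bp at 15. It climbed again to 376 bp at 19 and stood at 349 bp at 20. Medians narrowed at all 3 multiples of 5 between scores 11 and 29 and widened at 11 of the 15 other steps. In the HNF4A list they narrowed at all 5 multiples of 5 between 16 and 44 and widened at 20 of 23 other steps. The cause of this saw-tooth was not tested. The members' limit of 14 falls just before such a step, so FOXA2 widths are best compared at equal FOXA2 score.

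At equal FOXA2 score the members' peaks still had the larger medians. At score 11 the median was 385 bp in members, 363 bp beside HNF4A below 33 and 365 bp with no HNF4A peak. At score 12 it was 395 bp in members, 376 bp beside HNF4A below 33 and 374 bp with no HNF4A peak. At score 13 the medians were 410 bp in members, 380 bp beside HNF4A below 33 and 376 bp with no HNF4A peak, and at score 14 they were 446 bp in members, 402 bp beside HNF4A below 33 and 385 bp with no HNF4A peak. The order was thus the same at 4 of 4 scores for members against both other sets. Within a single score the members' interval overlapped those of both other sets at 4 of 4 scores. At score 14, for example, it was 394 to 481 bp in members, 388 to 439 bp beside HNF4A below 33 and 377 to 396 bp with no HNF4A peak. The share of peaks of 500 bp or more did not keep the same order at every score. At score 12 it was 16.9% in members, 13.9% beside HNF4A below 33 and 19.2% with no HNF4A peak. At scores 11, 13 and 14 the members' share was the largest, at 24.1%, 24.1% and 28.8%.

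**Figure D3:**
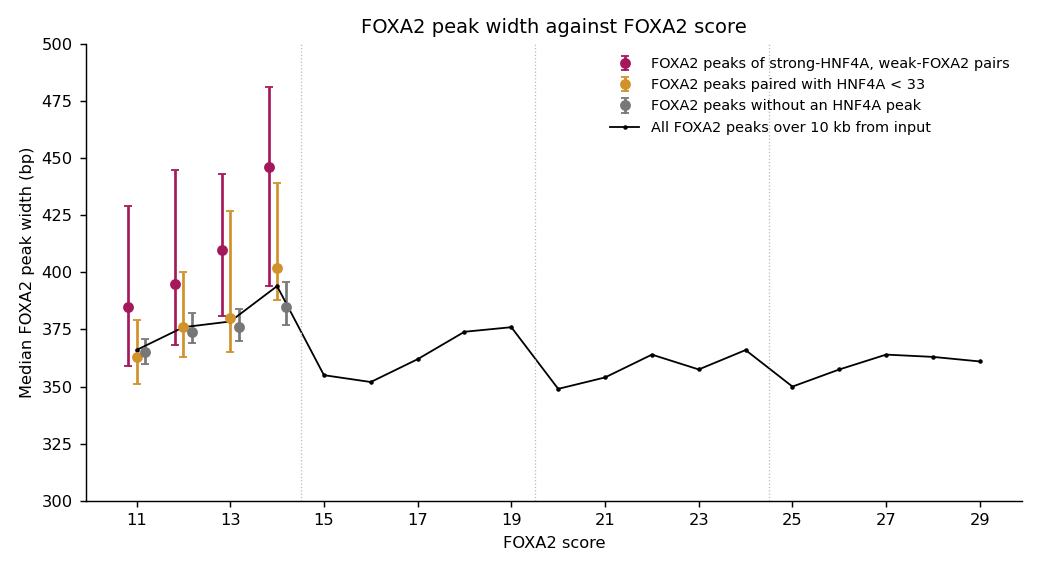
Median FOXA2 peak width (y axis, bp) at each FOXA2 score (x axis) for members, for FOXA2 peaks paired with HNF4A below 33, for FOXA2 peaks with no HNF4A peak, and for the FOXA2 list over 10 kb from input (line); bars are 95% order-statistic intervals and dotted lines mark the multiples of 5. Members have the highest median at scores 11 to 14, and the line steps down at 15, 20 and 25.

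With FOXA2 held at 11 to 14, its peak tended to be broader beside a stronger HNF4A partner, though not at every step. The groups were not matched on FOXA2 score within that range. Among pairs with partners of HNF4A score 16 to 19 the median FOXA2 width was 368.5 bp (361 to 379 bp, n = 226). It was 392.5 bp at 20 to 24 and 387.5 bp at 25 to 32. Among members it was 407 bp at 33 to 39, 395 bp at 40 to 49, 431 bp at 50 to 69 and 447 bp at 70 to 149 (357 to 508 bp, n = 33). Peaks of 500 bp or more made up 36.4% of the members at HNF4A scores of 70 to 149 (22.2 to 53.4%). They made up 12.4% of pairs at 16 to 19 (8.71 to 17.3%) and 17.1% of weak FOXA2 peaks with no HNF4A peak (15.8 to 18.4%). The interval of the share at 70 to 149 overlapped neither of the others, whereas that of its median width overlapped both. Among the 259 members the relation of HNF4A score to FOXA2 width was weak (rho = 0.12, r = 0.13). HNF4A width went the other way, with a median of 386 bp at HNF4A scores of 70 to 149, against 501 bp at 16 to 19. Even at HNF4A scores of 70 to 149, FOXA2 peaks of 500 bp or more were a minority, 12 of 33. The HNF4A peak lay wholly inside the FOXA2 peak in 27.3% of these 33, against 7.52% of pairs at HNF4A scores of 16 to 19. Enclosure depends on both widths, so it is not independent of the medians above.

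**Figure D4:**
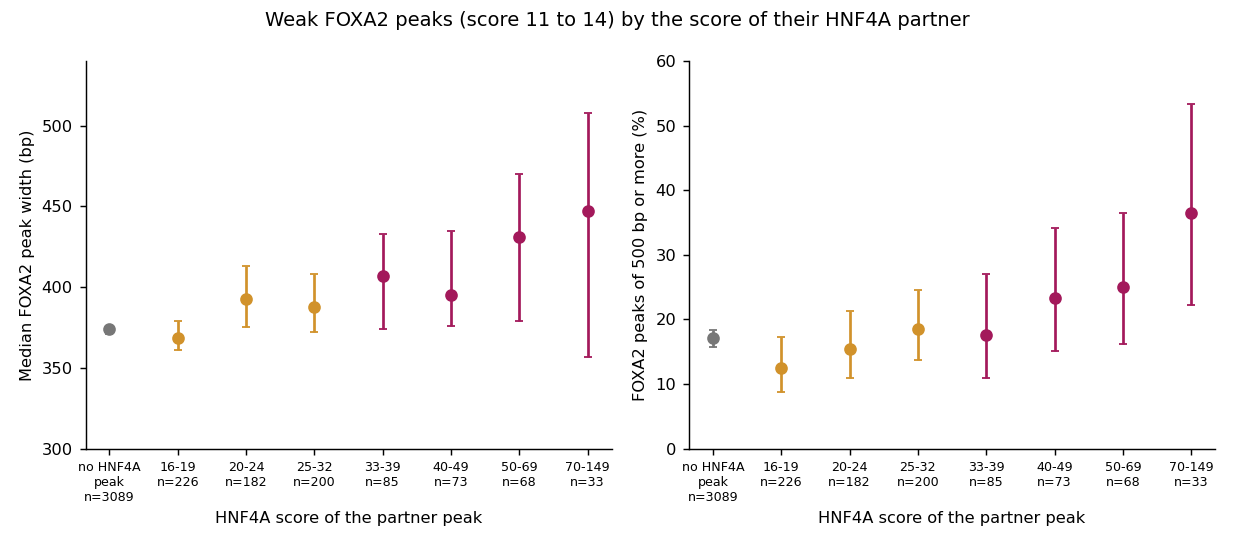
Weak FOXA2 peaks (score 11 to 14) grouped by the score of their HNF4A partner (x axis, with the number of peaks): median width in bp (left) and share of peaks of 500 bp or more in % (right), with 95% binomial intervals. Grey is FOXA2 with no HNF4A peak (374 bp), orange HNF4A below 33 and purple the members, whose medians run between 395 and 447 bp.

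Over all members, 42 HNF4A peaks lay inside their FOXA2 peak, 16.2% (12.2 to 21.2%), against 7.93% in the other pairs (6.95 to 9.03%) and 10.4% in pairs with HNF4A below 33 and weak FOXA2 (8.18 to 13%), whose interval overlapped that of members. The reverse, a FOXA2 peak inside the HNF4A peak, was seen in 22.8% of members (18.1 to 28.3%) and 35.7% of the other pairs (33.9 to 37.6%). FOXA2 peaks of members extended a median of 63 bp beyond the HNF4A peak, counting both sides (44 to 85 bp), against 24 bp in the other pairs (21 to 28 bp) and 39 bp in pairs with HNF4A below 33 and weak FOXA2 (33 to 48 bp). The widest member FOXA2 peak, 913 bp with a score of 12, lay at chr2:148511370-148512282 and enclosed an HNF4A peak of 356 bp and score 66. The 27 member FOXA2 peaks of 600 bp or more had HNF4A partners with a median width of 450 bp, and 17 of those partners were enclosed.

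HNF4A widths were close to those of other strong HNF4A peaks that met a FOXA2 peak. The median was 427 bp in members (414 to 442 bp), against 419 bp in pairs with strong HNF4A and FOXA2 above 14 (413 to 430 bp) and 441 bp in all other pairs (436 to 447 bp). HNF4A-only peaks of score 33 or more had a median of 406 bp (402 to 411 bp, n = 1920), below the interval of members. The widest member HNF4A peak was chr12:81204054-81205065 with 1012 bp and a score of 45, and the narrowest was chr10:68599664-68599949 with 286 bp and a score of 35. The site on chromosome 10 lay 128 bp from another FOXA2 peak of score 11. The members' interval overlapped that of other strong shared sites and not that of HNF4A-only peaks.

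The third measure was the neighbourhood, counting every other peak edge to edge from the pair. Fewer than 50% of members had a close HNF4A neighbour: 122 of 259 had another HNF4A peak within 10 kb, 47.1% (41.1 to 53.2%). This was the level of strong HNF4A sites in general, at 47.3% of pairs with strong HNF4A and FOXA2 above 14 (43.9 to 50.8%) and 46.1% of strong HNF4A-only peaks (43.9 to 48.4%). Pairs with HNF4A below 33 and weak FOXA2 were less often near another, at 32.4% (28.8 to 36.2%). So were weak FOXA2-only peaks, at 22.7% (21.3 to 24.2%). The share of members was thus like that of other strong HNF4A sites.

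FOXA2 peaks were also found near members. Another FOXA2 peak lay within 10 kb of 84 members, 32.4% (27.0 to 38.4%), against 31.1% of pairs with strong HNF4A and FOXA2 above 14 (28.1 to 34.4%), 28.3% of strong HNF4A-only peaks (26.4 to 30.4%) and 22% of pairs with HNF4A below 33 and weak FOXA2 (18.9 to 25.5%). With FOXA2 at 12 or less the share was 28.8% in members and 29% in the other pairs. Within 25 kb the shares were 55.2% of members (49.1 to 61.1%) and 49.9% of pairs with strong HNF4A and FOXA2 above 14 (46.5 to 53.4%). In 58 members a FOXA2 peak of score above 14 lay within 10 kb, 22.4% (17.7 to 27.9%). The share was 20.9% for pairs with strong HNF4A and FOXA2 above 14 (18.2 to 23.8%), 17.9% for strong HNF4A-only peaks (16.2 to 19.6%) and 18.7% for all other pairs (17.2 to 20.2%), whose intervals all overlapped that of members. It was 13.8% for pairs with HNF4A below 33 and weak FOXA2 (11.3 to 16.8%). Neighbouring FOXA2 peaks of any score were counted once for each pair they lay near. Of 102 so counted for members, 46 overlapped an HNF4A peak, 45.1%, against 49.8% of 902 for the other pairs.

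**Figure D5:**
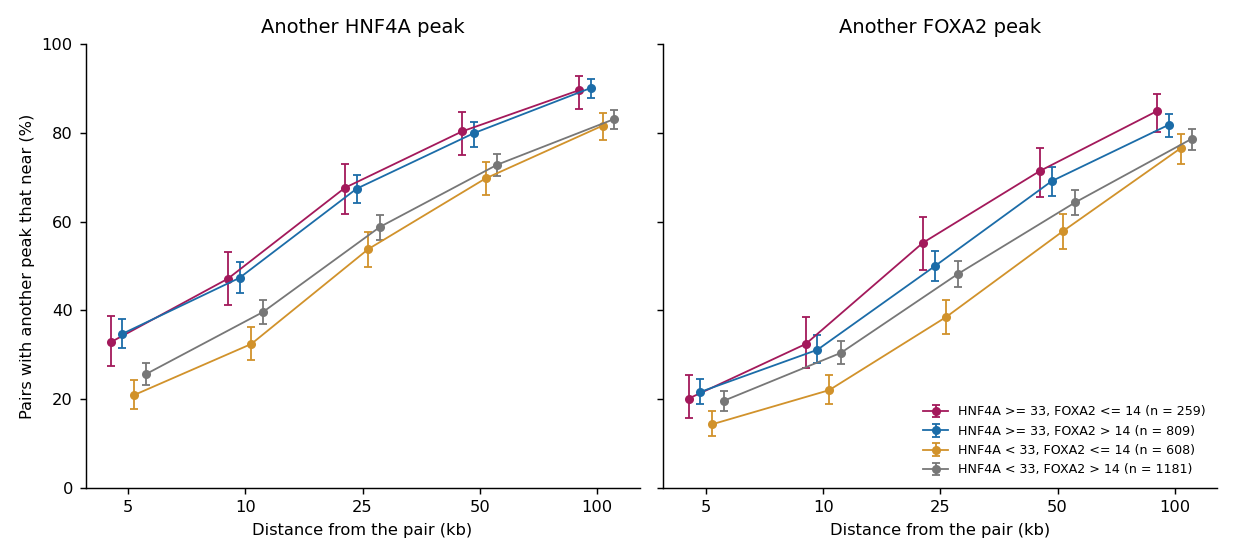
Share of pairs (y axis, %) with another HNF4A peak (left) or another FOXA2 peak (right) within 5 to 100 kb (x axis), with 95% Wilson intervals. Members and the 809 pairs with strong HNF4A and FOXA2 above 14 run together for HNF4A (47.1% and 47.3% at 10 kb), and the 608 pairs with HNF4A below 33 and weak FOXA2 lie lowest for both factors at 10 kb.

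Some of the strongest members illustrate this. The site at chr5:65748053-65748502 (HNF4A 139, FOXA2 12) had a FOXA2 peak of score 65 at 2392 bp, and 6 other HNF4A and 4 other FOXA2 peaks within 50 kb. At chr8:129137891-129138381 (HNF4A 83) a FOXA2 peak of score 74 lay 3782 bp away, and at chr7:149754823-149755338 (HNF4A 81) a FOXA2 peak of score 61 lay 1063 bp away beside an HNF4A peak of score 82 at 2023 bp. At others no FOXA2 peak was near: the nearest to chr17:34999044-34999692 (HNF4A 84) was 262712 bp away and the nearest to chr12:73037487-73037883 was 60716 bp away. Over the 20 highest, 13 had another HNF4A peak within 10 kb and 7 another FOXA2 peak.

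Members were more often part of dense groups of sites than the other pairs, though not when a short linking distance was used. Peaks that overlapped were counted as a single site, and neighbouring sites were linked up to a distance midway between 10 and 15 kb. By this count 33 members fell in groups of 5 or more sites, 12.7% (9.22 to 17.4%), against 6.74% of the other pairs (5.83 to 7.77%). The share was 7.91% for pairs with strong HNF4A and FOXA2 above 14 (6.24 to 9.98%) and 9.11% for strong HNF4A-only peaks (7.91 to 10.5%), whose intervals overlapped that of members. The difference depended on the joining distance. At 5 kb the shares were 1.16% of members and 1.15% of the other pairs, too few pairs for a close comparison. At 25 kb they were 27.8% of members and 19.4% of the other pairs. The 33 members lay in 33 different groups, 1 in each, out of 222 groups of 5 or more sites in all. In 24 of the 33 groups a FOXA2 peak scored above 14. How often groups without a member hold such a peak was not counted, so this is no trait of members. Within members the share in groups of 5 or more sites was 9.41% at HNF4A scores of 33 to 39. It was 24.2% at 70 to 149 (8 of 33).

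The members with the most company lay on chromosome 3, where chr3:82813602-82814069 (HNF4A 56, FOXA2 11) and chr3:82842824-82843225 (HNF4A 77, FOXA2 13) each had 8 other HNF4A and 7 other FOXA2 peaks within 50 kb. These members lie within 50 kb of each other, so each counts the peaks of the other. Their groups of sites were separate by a gap just over the linking distance. The nearest FOXA2 peak to chr3:82813602-82814069 had a score of 109 and lay 10241 bp away. Next was chr15:3178988-3179429 (HNF4A 56, FOXA2 13) with 6 other HNF4A and 7 other FOXA2 peaks. At the other end, 31 members, 12%, had no other peak of either factor within 50 kb (8.56 to 16.5%), against 16.9% of the other pairs (15.5 to 18.4%). The share was 12.7% in pairs with strong HNF4A and FOXA2 above 14 and 12.9% in strong HNF4A-only peaks, close to that of members. The most remote were chr3:124638141-124638479 (HNF4A 33), 949352 bp from the next peak, chr5:42295633-42296121 (HNF4A 38) at 716847 bp and chr5:131334613-131335063 (HNF4A 57) at 652677 bp. On average members had 3.77 other peaks within 50 kb, the other pairs 3.07 and pairs with strong HNF4A and FOXA2 above 14 had 3.45.

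Members were found on every autosome and on X. The median distance to the next member on the same chromosome was 2445.4 kb, and 10 of 259 had another within 50 kb. These distances were not computed for other sets of pairs, so they do not show whether members lie apart or together. As a share of pairs, whose background is 9.07%, members ranged over the autosomes from 3.7% on chromosome 15 (1.45 to 9.14%, 4 members) to 17.1% on chromosome 14 (11.3 to 24.9%, 20 members). The X chromosome held 5 members among 35 pairs and Y none of 1. Since the rule sets these numbers they are given as a description.

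The opposite combination was set beside the members, with HNF4A at 22 or less and FOXA2 at 22 or more in 365 pairs. Centres lay 68.5 bp apart in members (58.5 to 76 bp), against 59 bp in the opposite set (52 to 64.5 bp), and the intervals overlapped. In members the weak FOXA2 peak had a median of 407 bp where its whole list had 367 bp. In the opposite set the weak HNF4A peak had a median of 455 bp (434 to 480 bp) where its whole list had 430 bp. The whole lists span all scores, so these widths were not compared at equal score. Weak FOXA2-only peaks had a median of 374 bp. The interval of weak HNF4A peaks with no FOXA2 peak, given below, overlapped that of the opposite set. Weak HNF4A peaks, of score 22 or less, showed no steady order along the FOXA2 score. Their median width was 440 bp with no FOXA2 peak (435 to 445 bp, n = 4553) and 481 bp beside FOXA2 of 11 to 14 (452 to 507 bp, n = 327). It was 448 bp at 15 to 19, 457 bp at 20 to 29, 461 bp at 30 to 49 and 427 bp at 50 to 112 (402 to 483 bp, n = 63). The intervals of all these paired groups overlapped. That beside FOXA2 of 11 to 14 did not overlap that of peaks with no FOXA2 peak. The groups were not matched on HNF4A score. Whether the relations in both directions differ was not tested.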

How the data were processed

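The authors deposited 1 list of called regions per library, without a header, each line giving a chromosome, start, end and whole-number score. What the score of the deposited lists measures is not stated, so it was compared within its own list. Coordinates are in mm9, a build named in the submitters' processing notes. For the aligner, the peak caller and its thresholds, nothing was given in the sources used here, and the depth is unknown. A closing line of the FOXA2 file without a region was skipped, as were 3 mitochondrial HNF4A regions. Pairs, distances, widths and neighbours were computed with Python 3.11.15, numpy 2.4.6, pandas 2.3.3 and scipy 1.17.1 and drawn with matplotlib 3.10.9; the code was tested on simulated data. Input distances run edge to edge from the pair. Regions named in the text are the 20 members with the highest HNF4A score, the 3 at each end of distance and of neighbourhood, and the widest and narrowest peaks. The members and lists were chosen with earlier results of these data known. The width steps, the shift, the groups by score and the opposite combination were examined after values were seen. The comparisons were repeated with changes to the overlap, score limits, input distance, comparison pairs, chromosomes and radii. Nearest genes and sequences were not analysed here, since the gene tables used here are of GRCm38 and the lists of mm9.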

Additional observations from a re-analysis of the deposited data

How the results depend on the processing

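The wider FOXA2 peaks of members kept their direction under 11 of 11 alternatives, with differences from 26.5 bp (FOXA2 at 12 or less) to 62 bp (lists limited to HNF4A of 18 or more and FOXA2 of 13 or more). The number of members was 146 with FOXA2 at 12 or less and 113 with the limited lists, as fewer scores qualify. Set against pairs with strong HNF4A and FOXA2 above 14, the members' difference was 20.5 bp for centre distance, 8 bp for HNF4A width (other sign), -0.238 percentage points for another HNF4A peak within 10 kb (other sign) and 0.317 for other peaks within 50 kb. Set against pairs with HNF4A below 33 and weak FOXA2, it was -2 bp for centre distance (other sign), -37.5 bp for HNF4A width, -0.142 points for the FOXA2 centre inside the HNF4A peak, 10.4 points for another FOXA2 peak and 14.7 points for another HNF4A peak within 10 kb. With the limited lists, centre distance differed by 18 bp and HNF4A width by 2 bp (other sign). HNF4A width differed by -30 bp with HNF4A at 40 or more. Another FOXA2 peak within 10 kb differed by -0.263 points with FOXA2 at 12 or less (other sign). With sites joined at 5 kb the difference in dense groups was 0.00357 points. The cause of these changes was not tested beyond the choice itself. The alternatives on FOXA2 width, shift and FOXA2 scores of 15 to 19 were chosen after seeing the data, and centre distance then differed by 4, 13 and 5.5 bp. No paired analysis was possible because each group has 1 library. Unknown depth limits what a weak or missing FOXA2 peak can mean.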
